A study of Mus musculus with 12 samples.

Results

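Both kinds of control mice of the MED23 study were set against each other: 2 *Med23+/+;Lck-Cre* mice, which carry the Cre transgene and wild-type *Med23*, and 2 *Med23flox/flox* mice, which carry LoxP-flanked *Med23* alleles and no Cre. Each mouse gave 1 mock and 1 αCD3 array, so that 8 of the 12 arrays of the series belong to the comparison, 4 of each genotype. They were chosen by the genotype that the sample labels state. The other 4 arrays come from 2 *Med23flox/flox;Lck-Cre* (MED23 null) mice, which carry the transgene of one control and the alleles of the other, and are shown beside the controls. All mice were labelled as female C57Bl/6 x 129Sv (F1) animals of 6 to 7 weeks. RNA came from total thymocytes that had rested for 4 h before a 3 h incubation, either unstimulated (mock) or on plates coated with αCD3 antibody.

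The *Lck* promoter is active in developing T-cells, and in these mice it drives Cre from the double negative stage, before most thymocytes become CD4 CD8 double positive. Cre cuts DNA at LoxP sites, but a Cre transgene can act on a cell that has no LoxP site, and LoxP sites placed in introns can alter the gene that carries them. A study that deletes a gene therefore uses one control for the transgene and one for the floxed allele, and the arrays compared here ask whether these controls differ in mRNA. A signal is the brightness of a probe set, a group of short probes for 1 transcript, on a linear scale. In RNA of whole thymocyte suspensions, fewer cells of a type and less RNA per cell cannot be told apart.

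The labelled cell type was checked against its markers. *Rag1*, which cuts the receptor genes, read from 25468 to 31891 on the 8 arrays, *Dntt*, which adds bases at the joins, from 19522 to 25136, and the coreceptor *Cd8b1* from 18073 to 23326. The αCD3 array of *Med23flox/flox* replicate 1 stood apart in the low range, with a lower quartile of 85.2 against 50 to 56.0 on the other 7 control arrays. It correlated on average at 0.904 with the remaining arrays, and the other 7 control arrays did so at 0.938 to 0.944. The actin 3' to 5' ratio, a measure of RNA integrity, ranged from 1.35 to 1.53 in *Lck-Cre* and from 1.36 to 1.6 in *Med23flox/flox* arrays.

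*Med23* itself did not separate the control genotypes. Its signal was 424 and 368 in the mock arrays of the *Lck-Cre* mice and 310 and 425 after αCD3. The *Med23flox/flox* mice read 288 and 381 in mock and 489 and 381 in αCD3 arrays. The arrays overlapped, and the log2 difference, *Lck-Cre* minus *Med23flox/flox* over both treatments, was 0.00 with a 95% interval from -0.45 to 0.45 (limma, adjusted p = 0.999). The 4 MED23 null arrays read from 207 to 268, below all 8 control arrays. The position of the probes relative to the deleted exons was not given in the sources used here. The Cre transcript could not be followed, because the array's Cre probe sets read a control RNA that is added to every hybridization, and the brightest of them read from 48390 to 68003 on the 8 control arrays, with or without the transgene. *Lck* had no probe set that the annotation gives to it alone.

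Over both treatments, none of 8639 tested probe sets passed an adjusted p of 0.05 (0%), by limma with the mouse as a random block. The lowest adjusted p was 0.128, for *Ero1b*, and 465 probe sets, or 5.38%, had an unadjusted p under 0.05. None passed in the mock arrays (0%, 402 unadjusted), in the αCD3 arrays (0%, 579 unadjusted) or for the difference of the αCD3 response (0%, 491 unadjusted). Other fits called between 0 and 5 probe sets in any of these 4 comparisons. The median log2 difference over both treatments was -0.00, with a median standard error of 0.20. An estimated difference of at least 2-fold was seen for 19 probe sets higher and 47 lower in *Lck-Cre* mice.

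Differences were also read by whether they were present in both treatments. Both *Lck-Cre* arrays lay above both *Med23flox/flox* arrays in mock and again in αCD3 for 338 probe sets (3.91% of those tested), and below them in both for 356 (4.12%). Of these 694, 53 had an estimated difference of at least 2-fold, 17 higher and 36 lower in *Lck-Cre* mice. Mock and αCD3 arrays come from the same mice, so a difference that belongs to 1 mouse can return in both. The lower of both genotype means was under 100 for 33 of the 338 and for 103 of the 356, in the range where the αCD3 array of *Med23flox/flox* replicate 1 read high. Without that array, 677 of the 694 were tested and still without overlap, and 615 in all lay above and 638 below, as fewer arrays have to be apart.

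**Figure D1:**
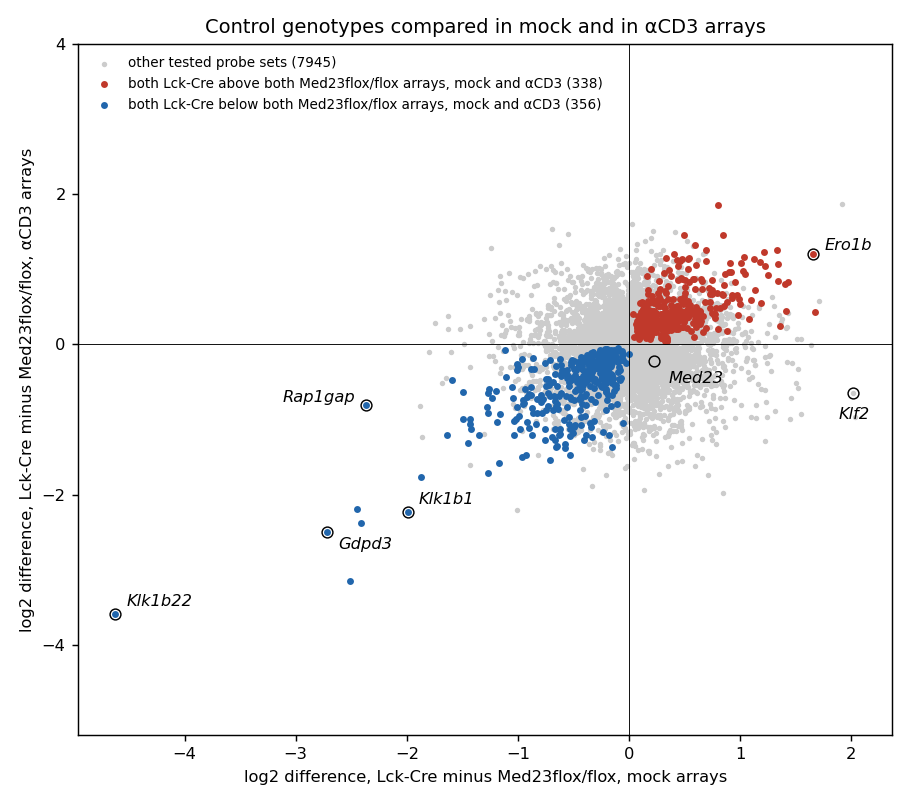
Each point is 1 of 8639 tested probe sets, with the log2 difference of *Lck-Cre* minus *Med23flox/flox* in mock arrays on the x axis and in αCD3 arrays on the y axis. Red and blue points are the 338 and 356 probe sets without overlap in both treatments, *Klk1b22* lies farthest to the lower left, and *Klf2* is higher in mock arrays only.

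These differences were set beside those between mice of 1 genotype. The *Lck-Cre* mice differed from each other at least 2-fold, in the same direction in both treatments, for 57 probe sets, and the *Med23flox/flox* mice for 94. A mouse of one control genotype differed in this way from a mouse of the other for 74 to 145 probe sets over the 4 possible pairs, a range that includes the second of these counts. At least 4-fold differences numbered 6 and 3 within genotypes and 3 to 9 across them. Between the genotype means, 31 probe sets differed at least 2-fold in both treatments and 5 at least 4-fold. A mean of 2 mice varies less than 1 mouse, so these counts cannot be set against those between single mice.

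Tissue kallikreins of the *Klk1* family made up 7 of the 12 largest lower differences without overlap. These are secreted serine proteases encoded by a cluster of near-identical genes, best known from the mouse submandibular gland, where some of them process growth factors. Each tested probe set of the family carries the array maker's mark for probes shared within a gene family, so a signal cannot be assigned to 1 member, and the gene names are those of the annotation. *Klk1b22* read 40.7 and 111 in the mock arrays of the *Lck-Cre* mice and 119 and 144 after αCD3. Signals in *Med23flox/flox* mice were 5360 and 1593 in mock and 4232 and 1053 in αCD3 arrays. Every *Med23flox/flox* array was above every *Lck-Cre* array, while replicate 1 was well above replicate 2. The ratio of the means was 29.5 (45.8 in mock and 20.1 in αCD3 arrays). It is uncertain in size, as the signal of 40.7 lay under the lower quartile of its array (56.0). The log2 difference was -4.11 (standard error 0.54, 95% interval -5.38 to -2.83, limma adjusted p = 0.286).

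The promoters of 4 family members are shown because they let a reader see how alike these genes are outside the transcripts that the probes read. They are the 250 bases before the RefSeq start site in GRCm38.p6, with a TTTAAA near the start in capitals.
Klk1b22, chr7:44112423-44112672, + strand: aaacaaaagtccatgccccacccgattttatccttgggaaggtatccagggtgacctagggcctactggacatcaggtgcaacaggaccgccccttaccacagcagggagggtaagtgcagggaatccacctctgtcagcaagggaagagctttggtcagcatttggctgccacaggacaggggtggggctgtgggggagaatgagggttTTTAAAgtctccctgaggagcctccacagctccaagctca
Klk1b1, chr7:43966501-43966750, + strand: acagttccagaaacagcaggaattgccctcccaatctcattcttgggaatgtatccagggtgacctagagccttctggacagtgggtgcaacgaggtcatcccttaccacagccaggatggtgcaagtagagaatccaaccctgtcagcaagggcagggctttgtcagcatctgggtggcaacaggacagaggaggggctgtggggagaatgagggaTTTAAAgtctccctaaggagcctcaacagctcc
Klk1b5, chr7:44216224-44216473, + strand: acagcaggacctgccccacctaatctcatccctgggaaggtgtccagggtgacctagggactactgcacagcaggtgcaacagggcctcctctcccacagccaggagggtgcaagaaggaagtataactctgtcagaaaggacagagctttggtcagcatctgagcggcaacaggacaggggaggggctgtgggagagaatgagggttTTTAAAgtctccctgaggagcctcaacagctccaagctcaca
Klk1b16, chr7:44137040-44137289, + strand: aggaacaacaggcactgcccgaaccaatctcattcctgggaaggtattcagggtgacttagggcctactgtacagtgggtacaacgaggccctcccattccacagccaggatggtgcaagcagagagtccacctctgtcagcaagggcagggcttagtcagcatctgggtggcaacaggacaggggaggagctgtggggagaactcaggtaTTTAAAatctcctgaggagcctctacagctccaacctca
These were 75.4% to 82.2% identical to each other in pairwise alignment. The capitals begin at positions -40, -33, -42 and -39, with -1 as the last base before the start. TTTAAA reads the same on both strands and was found in 12 of the 14 *Klk1* and *Klk1b* promoters of the table, against 12.1% of all 32851 promoters. The 14 are 1 promoter per gene, and the 32851 are all promoters listed. TTTAAA was taken from promoters of this family, which are alike, so its high share there is no test. A match of letters is a description and not a bound site.

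Of 14 probe sets for *Klk1* or *Klk1b* genes, 10 reached the signal needed for a test, and 9 of these lay below *Med23flox/flox* without overlap in both treatments, against 4.12% of all tested probe sets. A probe set could enter through either genotype, and most of the 10 had an *Lck-Cre* mean under 100. Most thus entered only through the *Med23flox/flox* arrays, where they read high, so the filter favours this count and the median below. Without the filter, 9 of the 14 lay lower without overlap, against 488 of 12422 probe sets. None of the 10 passed the test, with adjusted p from 0.276 to 0.898. The median log2 difference of the 10 was -1.71, against -0.00 for all tested probe sets. For 3 of them the *Lck-Cre* mean (25.4 to 35.5) lay under the lower quartiles of those arrays, so no range of folds is given. *Klk1b1* read 117 and 108 in mock and 28.7 and 187 in αCD3 arrays of *Lck-Cre* mice. Mice of the *Med23flox/flox* genotype read 769 and 458 in mock and 739 and 467 in αCD3 arrays, all above the *Lck-Cre* arrays. Its log2 difference was -2.11 (standard error 0.40, adjusted p = 0.393).

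The same order was seen in dimmer probe sets of the family. Their probes are shared within it, so they need not be separate readings of the genes named. *Klk1b5* read from 35.7 to 105 in *Lck-Cre* and from 207 to 546 in *Med23flox/flox* arrays at its brighter probe set, a log2 difference of -1.82. *Klk1b16* read from 22.3 to 94.3 against 146 to 361, a difference of -1.37. *Klk1b21* read from 31.7 to 104 against 58.5 to 438, a difference of -1.42, and its groups overlapped across treatments but not within them. *Klk1*, the founding member, read from 30.9 to 246 against 238 to 650 and was the tested member whose arrays overlapped within a treatment. The 2 probe sets named for several *Klk1b* genes read from 66.3 to 116 against 480 to 1010 and from 27.7 to 43.6 against 204 to 712. A probe set with no gene name had the largest such difference after *Klk1b22*, from 67.6 to 202 against 595 to 1814, or -2.83 on the log2 scale.

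Of the kallikreins outside this family and 7 other glandular genes, most were too dim to test. *Klk8*, known from brain and skin, read from 256 to 316 in *Lck-Cre* and from 248 to 356 in *Med23flox/flox* arrays, a log2 difference of -0.01 with a 95% interval from -0.37 to 0.34. The salivary amylase *Amy1* stayed at or under 32.2 on the 8 control arrays, *Pip*, a secreted protein of salivary and lacrimal glands, at or under 71.9, and *Mucl2* at or under 42. Of 7 salivary genes on the array, a list chosen after the kallikrein values were seen, 4 were under 100 on all 8 arrays, and the summed signal was 347 to 400.5 in *Lck-Cre* and 379 to 696 in *Med23flox/flox* arrays. *Car6*, a secreted carbonic anhydrase, lay lower without overlap, from 18.4 to 103 against 47.5 to 176, and *Bpifa2* overlapped. The part of glandular tissue in the kallikrein signals was not tested.

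The MED23 null arrays of *Klk1b22* read 1101 and 2589 in mock and 1151 and 2286 after αCD3, within the range of the *Med23flox/flox* arrays. For 7 of the 10 tested family probe sets all 4 MED23 null arrays lay above all 4 *Lck-Cre* arrays. For 9 the MED23 null mean was nearer to that of the *Med23flox/flox* mice, against 46.1% of all tested probe sets. Most tested probe sets of the family were thus brighter in the 4 mice with floxed alleles than in the 2 mice without them. Most of the 10 entered only through their high *Med23flox/flox* signals, which favours these counts, and with shared probes they need not be separate readings.

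**Figure D2:**
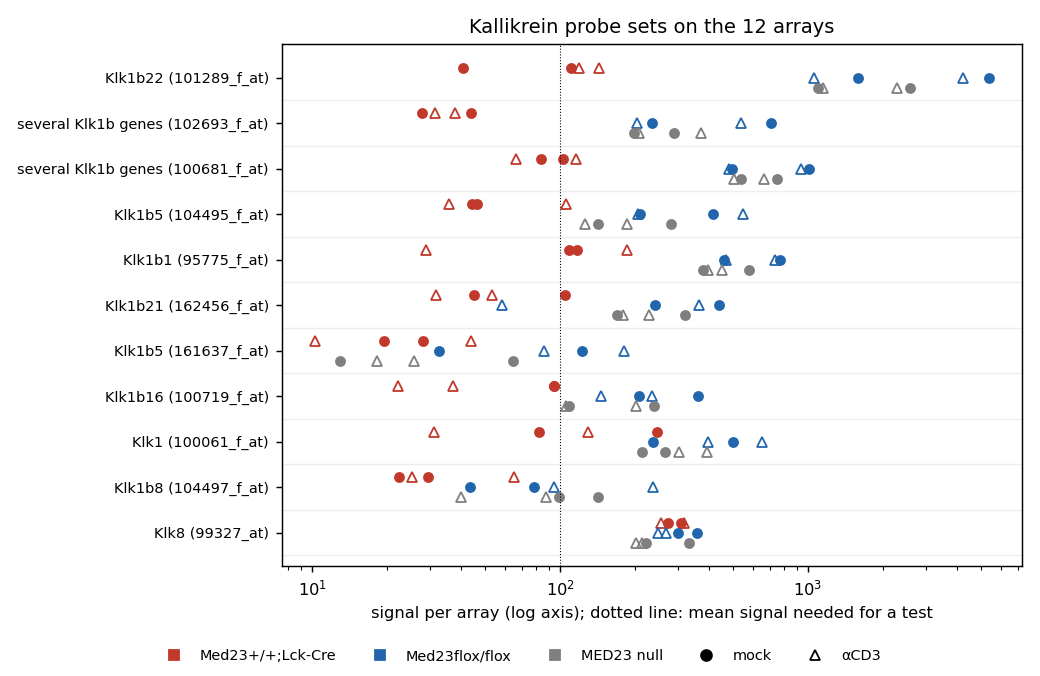
Signals of the tested kallikrein probe sets on each of the 12 arrays, on a log axis, coloured by genotype and marked by treatment. For 9 of the 10 *Klk1* family probe sets the *Lck-Cre* arrays lie to the left of the *Med23flox/flox* arrays within each treatment, with the widest gap at *Klk1b22*, and for *Klk8* they lie among them.

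*Klf2* had the largest test statistic for a difference in the αCD3 response. It encodes a zinc finger transcription factor that keeps T-cells quiescent and drives genes for thymic egress such as *S1pr1*, and its mRNA is known to be lost when the T-cell receptor is engaged. The *Lck-Cre* mice read 415 and 343 in mock and 38.3 and 34.2 in αCD3 arrays. For *Med23flox/flox* mice the signals were 47.7 and 64.4 in mock and 83.1 and 88.1 in αCD3 arrays. Both *Lck-Cre* mice were thus high in mock and low in αCD3 arrays, whereas all *Med23flox/flox* signals were under 100. The αCD3 signals of the *Lck-Cre* mice lay under the lower quartiles of their arrays (54.1 and 52.9), so no fold is given. Both signals of *Med23flox/flox* replicate 1 also lay under those of its arrays (55.9 in mock and 85.2 in αCD3). Its rise is thus not read as a response. The log2 difference of the responses was -2.67 (standard error 0.23, 95% interval -3.22 to -2.11, limma adjusted p = 0.0859).

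In mock arrays alone, the log2 difference of *Klf2* was 2.02 (standard error 0.18, adjusted p = 0.0913). It was 2.39 with 20 added and 1.62 with 100 added. Whether the mock and the response difference pass depends on the fit. Both passed when all 12 arrays shared 1 estimate of the spread (adjusted p = 0.00940 and 0.00906) and when only probe sets with a mean of 200 or more were tested (0.0324 and 0.0225). Neither passed with mouse means (0.393 and 0.848), with a variance trend (0.524 and 0.857) or with the replicate number as an added term (0.225 and 0.879). Over both treatments the difference was 0.68, with opposite signs in mock and αCD3 arrays. The MED23 null arrays read from 28.9 to 44.2.

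The *Klf2* promoter is shown because MEF2 transcription factors, which can take part in *Klf2* expression, bind A/T-rich runs of the kind in capitals, TAAATTTA.
Klf2, chr8:72318812-72319061, + strand: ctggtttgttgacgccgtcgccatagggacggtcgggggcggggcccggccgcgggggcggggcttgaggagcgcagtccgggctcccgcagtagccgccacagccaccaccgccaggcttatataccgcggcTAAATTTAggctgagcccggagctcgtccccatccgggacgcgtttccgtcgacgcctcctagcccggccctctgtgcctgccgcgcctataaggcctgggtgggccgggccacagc
TAAATTTA reads the same on both strands, does not contain the TTTAAA above, and was found in 0.502% of all 32851 promoters. In the *Klf2* promoter it begins at position -117.

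Genes that act with or downstream of KLF2 were read beside it. *S1pr1*, the sphingosine phosphate receptor that lets thymocytes leave the thymus, read 191 and 166 in mock and 120 and 124 in αCD3 arrays of *Lck-Cre* mice. The *Med23flox/flox* mice read 161 and 164.5 in mock and 326 and 118 in αCD3 arrays. The genotypes were apart by under 2 units in mock and overlapped after αCD3, and the log2 difference over both treatments was -0.22 (95% interval -0.88 to 0.43).

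*Cd52*, a surface glycopeptide, read 4077 and 3918 in mock and 4198 and 4480 in αCD3 arrays of *Lck-Cre* mice. Signals in *Med23flox/flox* mice were 3947 and 3314 in mock and 3556 and 3718 in αCD3 arrays. They overlapped in mock arrays, and the log2 difference was 0.20 (95% interval -0.13 to 0.52). *Ccr7*, a chemokine receptor of mature thymocytes, read 1273 and 1011 in mock and 585 and 761 in αCD3 arrays of *Lck-Cre* mice. Mice of the *Med23flox/flox* genotype read 642 and 998 in mock and 495 and 491 in αCD3 arrays, below the *Lck-Cre* arrays in both treatments. The log2 difference of *Ccr7* was 0.44 (standard error 0.21, adjusted p = 0.927).

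Of 15 tested genes of KLF2, egress and homing, 14 had a log2 difference above 0 and 1 below. None passed the test, and the median was 0.20, against -0.00 for all tested probe sets. The genes without overlap, a count of 2 of 15 against 3.91% higher and 4.12% lower over all tested, were *Ccr7* and *Slfn2*, a schlafen gene linked to T-cell quiescence, at 0.30. Markers of mature single positive thymocytes, some of them on both lists, had a median of 0.20 over 10 tested, and 9 markers of double positive thymocytes had one of 0.05.

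**Figure D3:**
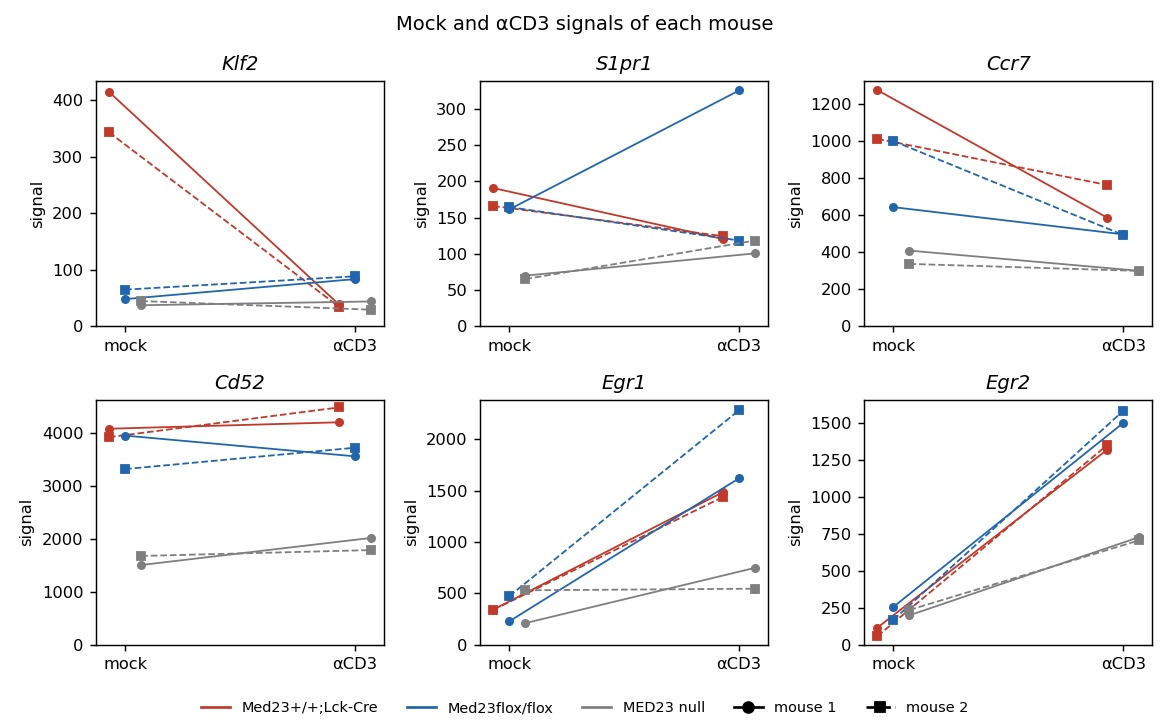
Signals of 6 genes in mock and αCD3 arrays, on linear axes from 0, by mouse and genotype. *Klf2* starts at 415 and 343 and ends under 40 in the *Lck-Cre* mice, whereas *Egr1* and *Egr2* run upward in all 4 control mice.

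The response to receptor engagement was also read in its usual targets. *Egr1*, an immediate early zinc finger gene of the MAPK/ERK pathway, read 340 and 337 in mock and 1484 and 1438 in αCD3 arrays of *Lck-Cre* mice. For *Med23flox/flox* mice the signals were 226 and 471 in mock and 1620 and 2283 in αCD3 arrays. It was higher with αCD3 in all 4 mice, and the log2 difference of its response was -0.42 (standard error 0.39, 95% interval -1.35 to 0.51). *Egr2*, its relative, read 114 and 56.6 in mock and 1321 and 1352 in αCD3 arrays of *Lck-Cre* mice. The *Med23flox/flox* mice read 255 and 167 in mock and 1503 and 1585 in αCD3 arrays. *Egr2* thus lay lower in *Lck-Cre* mice in both treatments, by -0.58 on the log2 scale (standard error 0.21, adjusted p = 0.89).

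*Cd5*, an inhibitory receptor, read 606 and 600 in mock and 4215 and 3648 in αCD3 arrays of *Lck-Cre* mice. Signals in *Med23flox/flox* mice were 546 and 861 in mock and 3948 and 5997 in αCD3 arrays, and the genotypes overlapped. Its response differed by -0.13 on the log2 scale (95% interval -0.96 to 0.69). For *Nab2*, a corepressor of EGR proteins, the log2 difference of the response was -0.54 (95% interval -1.29 to 0.22). For the early gene *Ier2* it was 0.19 (95% interval -0.53 to 0.91). For the receptor *Cd6* it was 0.03 (95% interval -0.65 to 0.71) at the brighter probe set and -0.67 (95% interval -2.42 to 1.09) at the dimmer one. The intervals of *Egr1* and *Nab2* leave room for differences of over 1 log2 unit.

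Of 21 tested genes of T-cell activation, NF-kB and NFAT, the median αCD3 response was 1.17 on the log2 scale in *Lck-Cre* and 1.25 in *Med23flox/flox* mice. For 21 immediate early and MAPK/ERK genes it was 0.48 and 0.52, against -0.02 and 0.01 over all tested probe sets. Over both treatments none of either list passed the test, and the medians of the difference were 0.02 and -0.05. *Elk4*, an ETS factor that binds with serum response factor, lay lower in *Lck-Cre* mice beside *Egr2*. It read 38.2 and 30.9 in mock and 82.1 and 119.5 in αCD3 arrays, against 197 and 57.3 in mock and 337 and 121 in αCD3 arrays of *Med23flox/flox* mice, so that the nearest αCD3 arrays were close.

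*Tnfrsf9*, the costimulatory receptor 4-1BB, was the gene of the activation list without overlap, from 82 to 176 in *Lck-Cre* and from 42.2 to 99.4 in *Med23flox/flox* arrays. Its log2 difference was 0.72 (standard error 0.26, adjusted p = 0.888). *Il2*, the T-cell growth factor, was not tested, with signals from 6 to 29.2 on the 8 control arrays.

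Among genes higher in *Lck-Cre* mice, *Ero1b*, which encodes an oxidoreductase that helps to form disulfide bonds in the endoplasmic reticulum, had the largest estimated difference of those without overlap. It read 842 and 922 in mock and 669 and 736 in αCD3 arrays. Mice of the *Med23flox/flox* genotype read 240 and 251 in mock and 297 and 257 in αCD3 arrays. Mice of a genotype were close to each other, the means differed 3.04-fold, and the log2 difference was 1.43 (standard error 0.13, 95% interval 1.11 to 1.75, adjusted p = 0.128). It passed the threshold with a variance trend (adjusted p = 0.0122) and with the filter at 200 (0.0420), but not with all 12 arrays (0.676) or mouse means (0.723). The MED23 null mice fell on either side, with 927 and 1023 in one mouse and 264 and 198 in the other. The *Ero1b* probe set, like those of the kallikreins, carries the mark for probes shared within a gene family. Its signal need not be that of *Ero1b* alone.

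*Cmah*, the enzyme that makes N-glycolyl sialic acid, read 619 and 442 in mock and 405 and 413 in αCD3 arrays of *Lck-Cre* mice. For *Med23flox/flox* mice the signals were 180 and 249 in mock and 122 and 202 in αCD3 arrays. The genotypes did not overlap, and the log2 difference was 1.13 (standard error 0.20, adjusted p = 0.38). *Ttc39b* read from 310 to 725 against 171 to 263, a difference of 1.21. *Pias3*, an inhibitor of STAT signals, read from 206 to 225 against 49.3 to 144.5, a difference of 1.11. *Zfp36l2*, an RNA-binding protein that shortens mRNA life, read from 82.8 to 228 against 28.1 to 63.1, a difference of 1.13.

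*Mea1*, *BC147527*, *Cd300c2*, *Ly9*, *Itpr2* and *Tbc1d15* had log2 differences from 1.10 to 1.33, without overlap in both treatments. They were less even between mice, and the probe set of *BC147527* carries the mark for probes shared within a gene family. *Tbc1d15*, which regulates RAB GTPases, read 1064 and 938 in *Med23flox/flox* replicate 1, 352 and 388 in replicate 2 and from 1317 to 1490 in *Lck-Cre* mice. An *Ighm* probe set, for the immunoglobulin mu chain, read from 398 to 574 against 64.6 to 375.5, a log2 difference of 1.15, but the other 9 tested *Ighm* probe sets were at -0.72 to 0.43. *Erdr1*, named after its values were seen, read from 522 to 1025 against 289 to 384 at its dimmer probe set, a difference of 0.99, and overlapped at its brighter one.

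Lower in *Lck-Cre* mice, apart from kallikreins, was *Rap1gap*, which turns off the small GTPase RAP1. It read 210 and 169 in mock and 268.5 and 224 in αCD3 arrays of *Lck-Cre* mice. The *Med23flox/flox* mice read 1456 and 959 in mock and 443 and 497 in αCD3 arrays. The genotypes did not overlap, with a log2 difference of -2.37 in mock (adjusted p = 0.0913) and -0.81 in αCD3 arrays. Over both treatments it was -1.59 (standard error 0.19, adjusted p = 0.276). *Eef1a2*, a translation elongation factor of muscle and nerve, read from 36.8 to 267 against 94.5 to 705, a difference of -1.49 (standard error 0.48).

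The CD1d genes, whose products present lipids to natural killer T-cells, lay in opposite directions. *Cd1d2* read 167 and 158 in mock and 220 and 161 in αCD3 arrays of *Lck-Cre* mice. Signals in *Med23flox/flox* mice were 350 and 796 in mock and 549 and 544 in αCD3 arrays, all above the *Lck-Cre* arrays, at -1.39 on the log2 scale (standard error 0.27, adjusted p = 0.393). *Cd1d1*, its close copy, read from 1288 to 1611 against 946 to 1085, a difference of 0.48 (standard error 0.14, adjusted p = 0.733). Whether probes of one copy read the other was not tested. *Hfe*, an MHC class I-like regulator of iron uptake named after its values were seen, read from 277 to 339 against 108 to 156.5, a difference of 1.00 (adjusted p = 0.38).

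Of 28 tested probe sets for MHC class I genes, which present peptides to CD8 T-cells or belong to the same family, 5 lay lower and 3 higher in *Lck-Cre* mice without overlap in both treatments, against 4.12% and 3.91% of all tested probe sets. None passed the test. The brightest probe set of the classical gene *H2-D1* overlapped at 0.09 on the log2 scale, and that of *H2-K1* lay higher without overlap at 0.28. Of the 5 lower ones, 3 are named for several genes of the *H2-T* region, with differences from -1.28 to -1.05. At the one for *H2-T9*, *H2-T22* and *H2-T10* with the larger difference, *Lck-Cre* replicate 1 read 1399 and 1322 and replicate 2 4428 and 4242 in mock and αCD3 arrays. Mice of the *Med23flox/flox* genotype read 4788 and 4483 in replicate 1 and 8705 and 6821 in replicate 2, all above both *Lck-Cre* mice. *Lck-Cre* replicate 1 was the lowest control mouse in both treatments for 6 of the 28.

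*Gdpd3*, which encodes a lysophospholipase D, also varied by mouse. It read 217 and 283 in *Lck-Cre* replicate 1, 4333 and 3947 in replicate 2, and 9169, 8242, 5426 and 5104 in the *Med23flox/flox* arrays. MED23 null replicate 1 read 7072 and 6035, and replicate 2 read 212 and 292. The log2 difference was -2.61 with a standard error of 1.05 (adjusted p = 0.918), although the control genotypes did not overlap.

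Genes that differed at least 4-fold in both treatments between mice of 1 genotype, chosen for these values, show the range that single mice can have. *Ctsl*, the lysosomal protease cathepsin L, read 10253 and 9058 in *Lck-Cre* replicate 1, 1808 and 1530 in replicate 2, 2021 and 1539 in *Med23flox/flox* replicate 1 and 12285 and 9742 in replicate 2. Each genotype thus held a high and a low mouse, and the log2 difference was -0.13. *Cd96*, a receptor of T and NK cells, read 88.2 and 69.7 in *Med23flox/flox* replicate 1 and from 942 to 1667 on the other 6 control arrays.

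**Figure D4:**
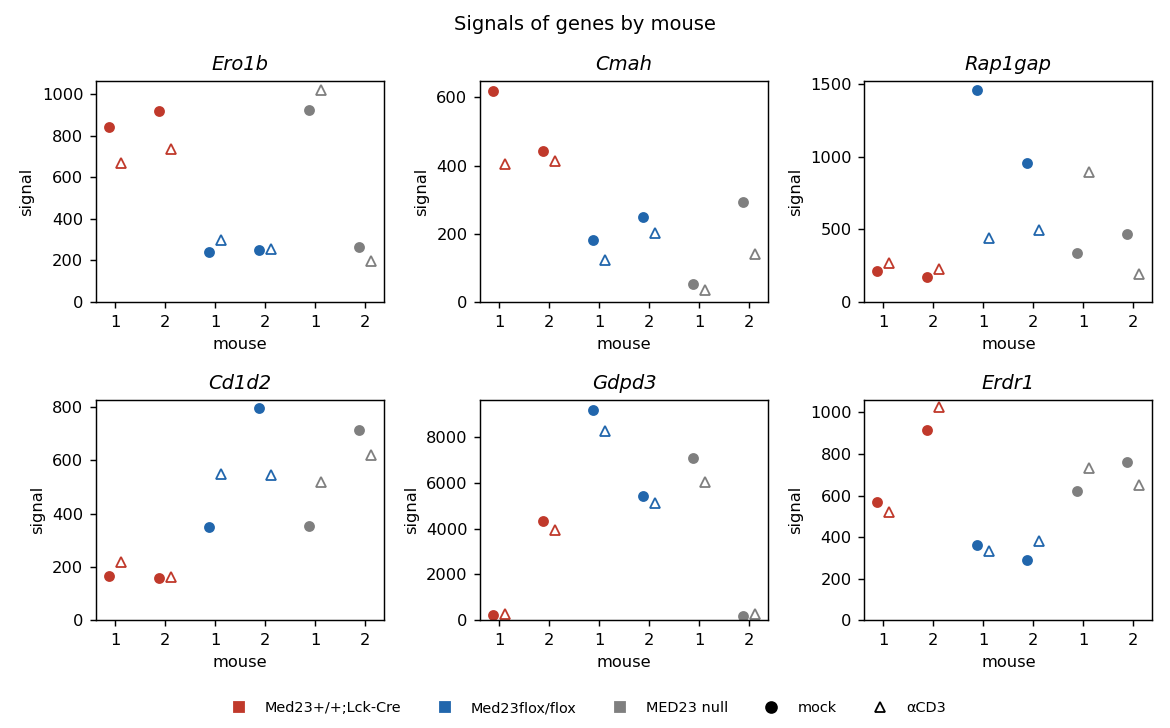
Signals of 6 genes in each of the 6 mice, on linear axes from 0, with 1 point for mock and 1 for αCD3 per mouse. *Ero1b*, *Cmah*, *Rap1gap* and *Cd1d2* separate the control genotypes within each treatment. *Erdr1* does so at its dimmer probe set, which is drawn, and overlaps at its brighter one. *Gdpd3* is low in *Lck-Cre* replicate 1 and MED23 null replicate 2 but not in the other 4 mice.

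Gene lists on damage, death and division, processes that a Cre enzyme could touch, had medians near that of all probe sets, and none of their genes passed the test. Genes without overlap in each list stand against 3.91% higher and 4.12% lower over all tested. Of 15 tested p53 and DNA damage genes, 7 had a log2 difference above 0 and 8 below, with a median of -0.00. The damage kinase *Atm* and the p53 target *Plk2* were at 0.65 and 0.64 (standard error 0.39 each), and the gene without overlap was *Chek1*, a checkpoint kinase, at 0.18. Of 18 genes of the BCL2 family and caspases, 13 were below 0, with a median of -0.06. *Bid*, a BH3-only death protein, was the one without overlap in both treatments, from 139 to 218 in *Lck-Cre* and from 213 to 311 in *Med23flox/flox* arrays. Of 27 cell cycle genes the median was 0.05, with *Ccnd2*, a D-type cyclin, higher without overlap at 0.70 and *Mki67*, the proliferation marker, lower at -0.32.

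For 14 tested genes of LCK and proximal T-cell receptor signalling the median was 0.15, with 11 above 0, and *Ptpn22* and *Txk*, a phosphatase and a kinase of T-cells, were higher without overlap at 0.29 and 0.25. For 13 genes of the receptor complex and coreceptors it was -0.06, with none without overlap, and *Cd4* read from 3682 to 4513 in *Lck-Cre* and from 3874 to 4330 in *Med23flox/flox* arrays. Of 13 Mediator subunits, *Ccnc*, cyclin C of the kinase module, lay without overlap at 0.25, and the median was 0.02. Interferon genes (12 tested) had a median of 0.11 and heat shock and stress genes (14 tested) one of 0.03, with *Txnip* without overlap at 0.19.

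Markers of other cells were read because a thymocyte suspension can hold some of them. Erythroid markers summed to 14673 to 20032 in *Lck-Cre* and 8563 to 16695 in *Med23flox/flox* arrays. Of 7 tested, 4 had a log2 difference above 0 and 3 below, with a median of 0.11. The alpha globin *Hba-a1* was at 0.71 without overlap, and *Med23flox/flox* replicate 2 was the lowest control mouse for it. Myeloid markers summed to 6721 to 9451 against 6983 to 7577. Of 17 tested, 12 were above 0 and 5 below, with a median of 0.12. Among them *Cst3* was lower without overlap at -0.18. *S100a9*, a granulocyte calprotectin subunit, was at 0.94 (standard error 0.54) and highest in *Lck-Cre* replicate 2. MHC class II genes had a median of -0.11 over 10 tested, with *H2-Aa* lower without overlap at -0.81, *Cd74* lower at -0.20 and *Ciita*, their activator, higher at 0.46.

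Of 16 epithelial and stromal markers on the array, 7 were under 100 on all 8 arrays, and the sum was 5462 to 8699 against 5841 to 9667. For B cells the sums were 8137 to 9660 against 8247 to 9648. For double negative thymocytes the sums were 3364 to 3870 against 3369 to 4100. Of 10 tested, 5 were above 0 and 5 below, with a median of -0.04, and *Lyl1*, an early haematopoietic factor, lay lower at -0.78. For cytotoxic cells the sums were 1901 to 2244 against 1639 to 2796. Of 5 tested, 2 were above 0 and 3 below, with a median of -0.05, and *Gzmb*, a granzyme, lay lower at -0.33. The part of these markers in the other differences was not tested.

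**Figure D5:**
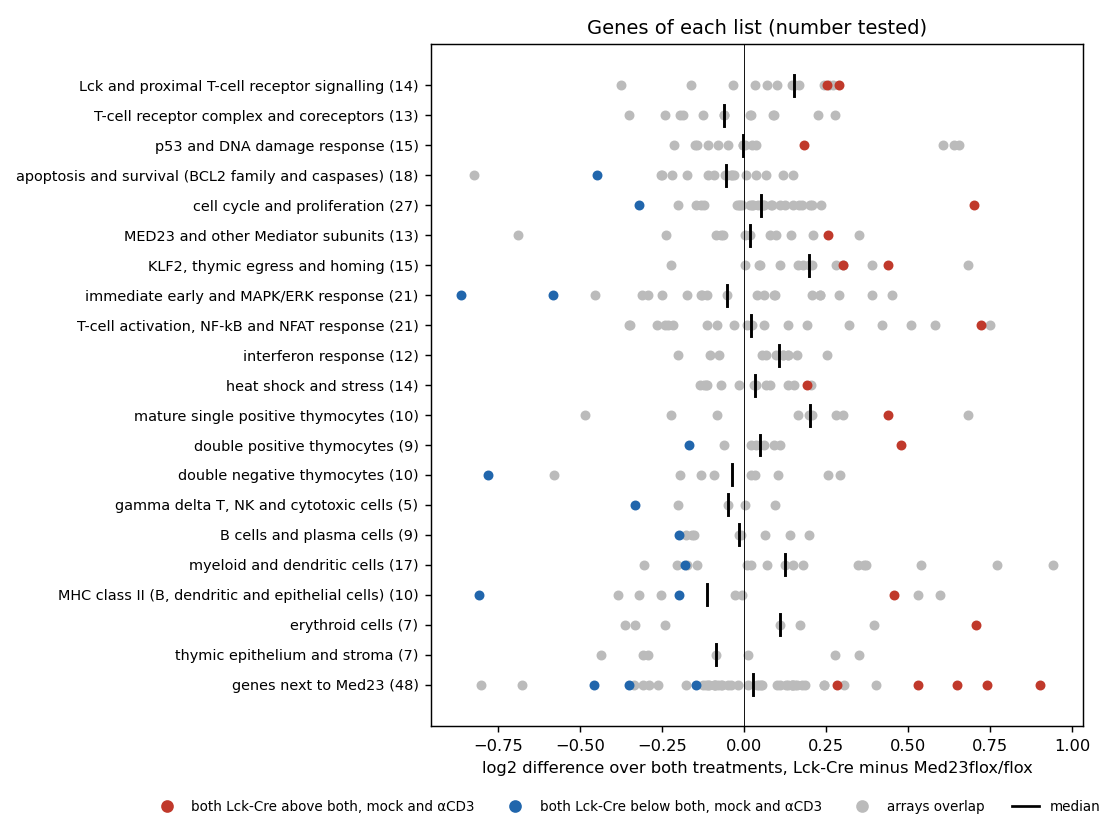
Each dot is the log2 difference over both treatments of 1 tested gene, by list, with the median as a black bar. Red and blue dots are genes without overlap in both treatments, and the medians of the lists drawn lie between -0.11 and 0.20. The lists of strain-dependent, X-inactivation and salivary genes, with 1 or 2 tested genes each, are not drawn.

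The background of the mice was checked with genes that depend on sex or strain. *Xist*, the RNA of X inactivation, was high on all 8 arrays and higher in *Lck-Cre* mice, from 2110 to 2959 against 1655 to 1730, a difference of 0.63 on the log2 scale (standard error 0.16, adjusted p = 0.684). *Nnt*, a mitochondrial transhydrogenase that is partly deleted in the C57BL/6J substrain, read from 950.5 to 1055 in *Lck-Cre* and from 1038 to 1387 in *Med23flox/flox* arrays, at -0.27. *Klra7*, an NK cell receptor that varies between strains, was at -0.81 with overlap.

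Genes that lie next to *Med23* were read because a floxed allele is bred together with the chromosome around it. Of the 100 protein-coding genes on either side, 61 in all were on the array and 48 were tested. Of these, 5 lay higher and 3 lower in *Lck-Cre* mice without overlap in both treatments, against 3.91% and 4.12% of all tested probe sets. None passed the test (0% of all), and the median was 0.03. *Epb41l2*, a membrane skeleton protein, read 660 and 655 in mock and 937 and 744.5 in αCD3 arrays of *Lck-Cre* mice. For *Med23flox/flox* mice the signals were 276 and 416 in mock and 399 and 423 in αCD3 arrays, all below, at 0.90 on the log2 scale (standard error 0.17, adjusted p = 0.393). *Map7*, a microtubule-binding protein, and *Sf3b5*, a splicing factor subunit, had differences of 0.74 and 0.65, and *Tspyl1* and *Pex7* of 0.53 and 0.28. The lower genes were *Col10a1* at -0.46, *Crybg1* at -0.35 and *Atg5* at -0.15. The MED23 null mean was nearer to that of the *Med23flox/flox* mice for *Epb41l2*, *Map7* and *Sf3b5* and nearer to that of the *Lck-Cre* mice for *Tspyl1* and *Pex7*.

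The MED23 null arrays, which share Cre with one control and floxed alleles with the other, were placed beside both. For the 694 probe sets without overlap, the MED23 null mean was nearer to the *Lck-Cre* mean in 401, or 57.8%, against 53.9% of all 8639 tested. It was nearer in 198 of the 338 higher and 203 of the 356 lower probe sets. Among the 53 with an estimated difference of at least 2-fold, it was nearer in 12 of the 17 higher and 16 of the 36 lower. The share was 46.1% or 45.4% when *Lck-Cre* replicate 1 or 2 was left out and 67.7% or 67.3% when *Med23flox/flox* replicate 1 or 2 was, so no side is read from it.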

How the data were processed

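The authors deposited the values as MAS5 signals of Affymetrix Murine Genome arrays, linear intensities that share 1 trimmed mean per array (MAS5 per the submitters' processing notes, version not given in the sources used here). For the fit, 50 was added before log2. Controls (66 of 12488 probe sets) were dropped, and 8639 probe sets had a mean of at least 100 in either genotype. The 8 arrays were fitted in limma 3.58.1 (R 4.3.3) with 4 means of genotype and treatment, the mouse as a random block (correlation 0.18) and eBayes, in 4 comparisons with Benjamini-Hochberg adjustment at 0.05. The fit was tested on simulated data drawn with its own shared correlation. Probe sets that vary more by mouse were thus not covered. For set changes of 2-fold, it called 20 of 33 lower and 23 of 33 higher ones, and 10 of 8439 unchanged probe sets. Further probe sets were set to log2 changes of 2 and 3 in either direction, 33 or 34 of each. Many large changes make the Benjamini-Hochberg cut easier to pass, so these shares need not hold where few probe sets differ. Replicates are separate mice, but both arrays of a mouse enter the fit, with 1 correlation shared by all probe sets. The p-values and intervals thus mix the spread between mice with that within mice. Intervals can be too narrow, and p-values too small, for probe sets that vary by mouse. With mouse means in limma, the smallest adjusted p over both treatments was 0.723, against 0.128 in the main fit. Precision is limited by how few arrays there are.

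The platform annotation gave 10855 probe sets 1 symbol, 396 several and 1237 none, and 10839 matched RefSeq by Entrez ID. Promoters are those of RefSeq, aligned with Biopython 1.88. Lists take 1 probe set per gene. Named genes are *Med23*, up to 12 probe sets per direction with the largest differences without overlap, up to 4 per list, genes that the study names, and the 4 largest response statistics per direction. The comparison, members and lists were chosen with earlier results of these data known. Other pseudocounts, filters, scalings and models were tried.

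Replicate numbers were not taken to pair mice of different genotypes, since the labels give no shared litter or day. Deviations from group means correlated at 0.0946 and 0.163 between arrays of 1 mouse.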

Additional observations from a re-analysis of the deposited data

Results flagged for a closer look

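For 7 genes named for their αCD3 response, both *Lck-Cre* mice moved one way with αCD3 and both *Med23flox/flox* mice the other. The log2 difference of the response, *Lck-Cre* minus *Med23flox/flox*, was -2.67 for *Klf2*, whose signals stand in the report. For *Sec23b*, a coat protein of vesicles that leave the endoplasmic reticulum, it was -2.47, with 290 and 268 in mock and 110.5 and 47.2 in αCD3 arrays of *Lck-Cre* mice, and 76.9 and 49.4 in mock and 164 and 213 in αCD3 arrays of *Med23flox/flox* mice. It was -2.12 for *Coil*, which encodes coilin of Cajal bodies, and -2.02 for the peptide transporter *Slc15a2*. It was 1.90 for *Slc10a6*, 1.73 for *Kdelr3* and 1.41 for *Samhd1*. The interaction was tested in limma and passed for none of them, with an adjusted p of 0.0859 for *Klf2* and 0.761 for the others. The genes were picked for the size of this statistic, and each of the 7 had a signal under 100 on at least 1 array of each control genotype. For *Klf2*, all *Med23flox/flox* signals were under 100, and both of replicate 1 lay under the lower quartiles of their arrays. The direction of *Klf2* in that mouse is thus uncertain.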

How the results depend on the processing

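The count of probe sets past an adjusted p of 0.05 was 0 in all 4 comparisons with other pseudocounts, no filter, quantile or trimmed mean scaling, mouse means, and when any 1 mouse was left out (its partner then assumed to vary like the others, at the correlation of 0.18). With the filter at 200 it was 1 over both treatments (*Ero1b*), 3 in mock arrays (*Ero1b*, *Klf2*, *Rap1gap*) and 1 for the response (*Klf2*). With a variance trend it was 5 over both treatments, *Klk1b22* and another *Klk1b* probe set included, and 3 in mock arrays. With all 12 arrays in the fit it was 1 in mock arrays and 1 for the response, *Klf2* in both. The replicate number as a term added to the fit called 0, with a smallest adjusted p of 0.168 over both treatments. It gave 850 probe sets with an unadjusted p under 0.05, against 465 in the main fit. No block at all called 0, with a smallest adjusted p of 0.0729. Same-numbered arrays of different genotypes correlated at 0.061 and 0.0715, against 0.0946 and 0.163 between arrays of 1 mouse. These values do not settle whether same-numbered mice shared a day, and the number is not read as a pairing.

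Probe sets without overlap in both treatments numbered 663 to 694 under the scalings, 856 without the filter and 547 at 200. They numbered 1253 without the αCD3 array of *Med23flox/flox* replicate 1, an alternative chosen after seeing the data, and 2074 to 2783 with 1 mouse left out, since fewer arrays must then be apart. The share nearer to *Lck-Cre* ranged from 45.4% to 67.7% with 1 mouse left out. *Klk1* family probe sets lower without overlap numbered 7 to 11. Of 131 named differences, 26 changed sign under 1 alternative or more, none of them past the threshold, and the 34 of at least 2-fold kept their sign in every alternative that gave them a value, some having none where the filter or a left-out mouse removed them. With 2 mice per genotype, signals under 100 and probes shared within families limit what can be read.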
